A study of Mus musculus with 6 samples.

Results

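The genes described here encode heterotrimeric G protein subunits and regulators of G protein signalling (RGS proteins). A total of 33 were listed by name from the Rgs, Gna, Gnb and Gng families, without reference to their measured values. On the array 32 of the 33 had a probe set annotated with that gene alone, out of 22180 genes measured in this way. Gnb2 was left out because its only annotated probe set also names Epo. Where a gene had several probe sets, the one with the highest mean over the 6 arrays stood for it. RNA came from megakaryoerythroid progenitors (MEP), which give rise in the marrow to platelet-forming megakaryocytes and to red cells. The tested animals were T-bet knockout mice (3 arrays) and the controls were wild-type C57BL/6 mice (3 arrays); the strain is given as C57BL/6 for both. No treatment was given, the sources used here do not give the age of the mice, and the cells were stained with antibodies and sorted by flow cytometry from fresh marrow. T-bet is the T-box transcription factor encoded by Tbx21. Nothing in the labels limits the deletion to MEP cells.

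When an agonist binds a G protein-coupled receptor, the receptor makes the alpha subunit exchange GDP for GTP, and the alpha subunit and the beta-gamma dimer then separate and act on their effectors. RGS proteins speed up GTP hydrolysis by alpha subunits and so shorten the signal. In megakaryocytes and platelets these proteins carry the signals of thrombin, ADP, thromboxane and chemokines, and in marrow progenitors the CXCL12 signal that holds cells in place.

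Values are log2 signals, and a difference is the T-bet knockout mean minus the wild-type mean on that scale, so a difference of 1 is 2-fold. Signals of different probe sets depend on their probes and were not ranked against each other. Group and replicate come from the sample titles. The arrays were close to each other, with medians between 6.44 and 6.53 and correlations between arrays of 0.989 to 0.994 over 22180 genes. The sorted cells carried the transcripts that define MEP. Across the 6 arrays Kit read 11.95 to 12.07, Gata2 10.37 to 10.57 and Klf1 10.48 to 10.75, all outside the dimmest 30% of probe sets. Tbx21 itself read 6.41, 6.60 and 6.46 on T-bet knockout arrays and 6.54, 6.62 and 6.60 on wild-type arrays, a difference of -0.09 (SE 0.09), so it gave no check of the genotype. Xist and Y-linked transcripts were both present on T-bet knockout replicates 1 and 2 and wild-type replicate 1, although the labels describe each array as 1 mouse. Wild-type replicate 2 was high for Xist (12.21) and low for Y-linked genes (mean 5.09). T-bet knockout replicate 3 and wild-type replicate 3 were low for Xist (5.42 and 5.56) and high for Y-linked genes (means 9.74 and 9.61). Leaving out the 3 arrays with both signals leaves 1 T-bet knockout array against 2 wild-type arrays, which differ from each other in Xist and Y-linked signal. In that comparison 8 of the 31 members with a sign changed it. Differences without the 3 arrays are given for Rgs1, Rgs2, Rgs9, Gnai1, Gnaq and Gna15. Those of Rgs3, Rgs14 and Gnb1 moved as well, from 0.03, -0.00 and 0.01 to -0.03, -0.07 and 0.08. Markers of platelets, B cells, granulocytes and mast cells differed between arrays, as did endothelial, stromal and pericyte markers. Their values are given beside members that shared their highest or lowest array, and the last list is also set beside Rgs5, a pericyte marker.

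Promoters of the genes were searched for motifs of the deleted factor and of signal-responsive factors. Of the 33 listed genes 25 had a promoter in the RefSeq table (GRCm38.p6; 250 bases before to 50 bases after the start site). The T-box core GGTGTGA, searched on both strands, was present for 2 of these 25 genes (8%), Rgs12 and Gnb5, against 4.6% of all 27025 genes in the table. Both are shown with that motif in capitals, which reads TCACACC on the printed strand.
Rgs12, chr5:34949198-34949497, plus strand: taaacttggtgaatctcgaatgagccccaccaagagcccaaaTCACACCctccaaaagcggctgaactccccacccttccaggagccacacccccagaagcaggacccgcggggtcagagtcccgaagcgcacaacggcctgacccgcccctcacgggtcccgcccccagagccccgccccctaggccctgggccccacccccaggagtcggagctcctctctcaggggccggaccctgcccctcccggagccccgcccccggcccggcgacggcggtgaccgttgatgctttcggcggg
Gnb5, chr9:75306038-75306337, plus strand: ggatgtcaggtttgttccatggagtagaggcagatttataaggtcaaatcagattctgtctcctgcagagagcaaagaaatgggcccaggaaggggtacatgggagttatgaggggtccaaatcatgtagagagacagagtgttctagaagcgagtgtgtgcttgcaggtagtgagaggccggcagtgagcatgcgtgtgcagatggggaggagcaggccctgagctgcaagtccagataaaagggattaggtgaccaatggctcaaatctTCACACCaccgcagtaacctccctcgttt
The Rgs2 promoter is shown because Rgs2 was, with Rgs1, one of the members whose signal varied most between arrays. Its capitals mark the CRE half-site TGACG, chosen after the sequence was seen, which occurs on both strands and also forms part of the full CRE.
Rgs2, chr1:144004100-144004399, minus strand: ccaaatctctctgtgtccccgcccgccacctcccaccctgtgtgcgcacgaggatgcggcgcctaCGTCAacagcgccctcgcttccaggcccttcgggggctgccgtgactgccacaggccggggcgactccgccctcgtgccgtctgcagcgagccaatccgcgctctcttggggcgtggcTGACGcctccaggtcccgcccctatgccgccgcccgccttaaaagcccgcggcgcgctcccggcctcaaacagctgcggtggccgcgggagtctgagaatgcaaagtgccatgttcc
The half-site matched 2 times in Rgs2 and was found in 7 of the 25 genes (28%), against 23% of all genes. The full CRE TGACGTCA and the CArG box were found in 0 of the 25, against 2.03% and 1.81% of all genes. The AP-1 motif TGANTCA was found in 3 (12%), Gng2, Rgs12 and Rgs17, against 8.97%. AGATAA, the core bound by GATA factors, was found in 3 (12%), Gnb5, Rgs3 and Rgs5, against 12.7%. These matches describe letters in a window and were not tested as binding sites.

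The comparison of genotypes asked whether loss of T-bet alters the genes of this signalling step in MEP. No member passed the test for a difference between T-bet knockout and wild-type arrays. Limma called 0 of 32 members at an adjusted p of 0.05, as it did 0 of 41345 probe sets (0%), and each member's adjusted p was 1. At an unadjusted p under 0.05 there were also 0 of 32, against 3.13% of all genes (1.44% higher and 1.7% lower on T-bet knockout arrays); limma with a mean-variance trend gave 0 in both counts. The smallest unadjusted limma p of a member was 0.147, for Rgs4. Differences were positive for 13 of the 32, negative for 18 and 0 for 1, Gng10, and their median was -0.03, against -0.00 over all genes, of which 48.2% were positive. The members' differences lay between -0.19 and 0.15. The 3 T-bet knockout values lay wholly below the 3 wild-type values for 1 member, Gng7, and wholly above for 0, where groups did not overlap for 8.7% of all genes (5.18% lower and 3.52% higher on T-bet knockout arrays).

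For most members the arrays also set a narrow limit on the difference in signal. The 95% interval excluded differences of 1.5-fold or more, up or down, for 30 of 32 members (93.8%), against 85.9% of all genes and 93.1% of genes outside the dimmest 30%. The exceptions were Rgs1 and Rgs2, and the interval of Rgs2 still lay within 2-fold. All 18 G protein subunit genes were within 1.5-fold. Rgs4, Rgs5 and Rgs17 belonged to the dimmest 30% of probe sets, where a difference in signal can understate one in RNA.

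**Figure D1:**
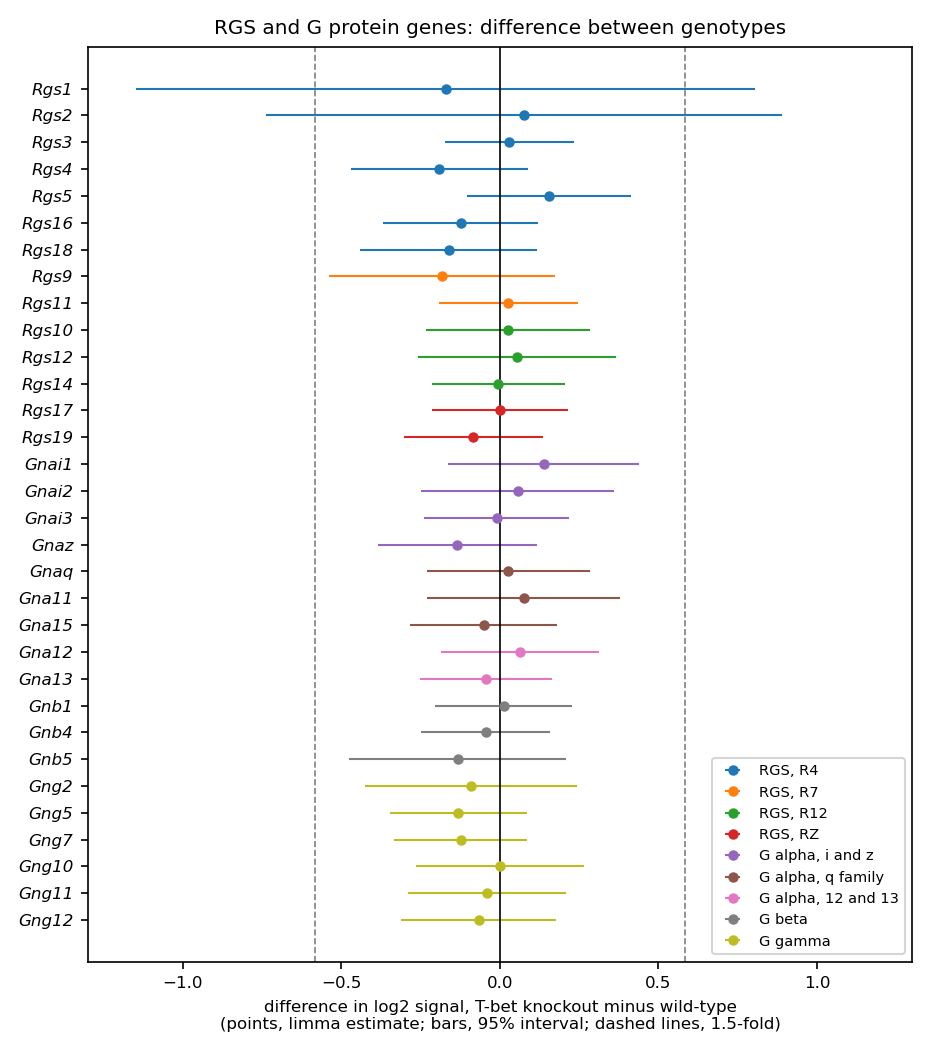
Difference in log2 signal, T-bet knockout minus wild-type, for the 32 measured RGS and G protein genes, coloured by subfamily; points are limma estimates from 3 arrays per genotype, bars are 95% intervals and dashed lines mark 1.5-fold. Every interval spans 0, and only those of Rgs1 and Rgs2 cross a dashed line.

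Among the RGS genes the R4 subfamily, small proteins made up of little more than the RGS domain, held the members that varied most. Rgs1, a brake on chemokine receptor signalling in lymphocytes, read 6.79, 6.65 and 8.03 on T-bet knockout replicates 1 to 3, against 7.48, 6.79 and 7.71 on wild-type replicates 1 to 3. The genotypes overlapped widely: T-bet knockout replicate 3 was the highest array of all and T-bet knockout replicate 2 the lowest. The difference was -0.17 (SE 0.41, 95% interval -1.15 to 0.81), and the exact permutation test over the 6 arrays, 2-sided, gave p = 0.9. With 3 arrays against 3 the smallest p that test allows is 0.1. Rgs2, which acts mainly on the Gq class of alpha subunits, read 6.76, 6.55 and 7.81 on T-bet knockout arrays and 7.25, 6.64 and 7.01 on wild-type arrays. Here too T-bet knockout replicates 3 and 2 were the highest and the lowest array, and the difference was 0.08 (SE 0.34, 95% interval -0.74 to 0.89; exact permutation p = 0.9). Without T-bet knockout replicate 3 the differences were -0.61 for Rgs1 and -0.31 for Rgs2. Without the 3 arrays that carried both Xist and Y-linked signal they were 0.78 and 0.99.

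The spread of Rgs1 and Rgs2 was of a kind that few genes showed. Their SD between arrays of the same genotype was 0.64 and 0.52, at the 99.6th and 99.1st percentile of all genes. The next member, Rgs9, had 0.20, at the 76.3rd percentile. The median over the 32 members was 0.107, against 0.136 over all genes. Outside the dimmest 30% of probe sets the medians were 0.107 for members and 0.12 for all genes. No other member deviated by more than 0.35 from its own mean on any array. A second Rgs2 probe set, in the dimmest 30%, read 5.18, 4.79 and 4.78 on T-bet knockout arrays and 4.81, 4.64 and 4.46 on wild-type arrays and did not follow the first.

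**Figure D2:**
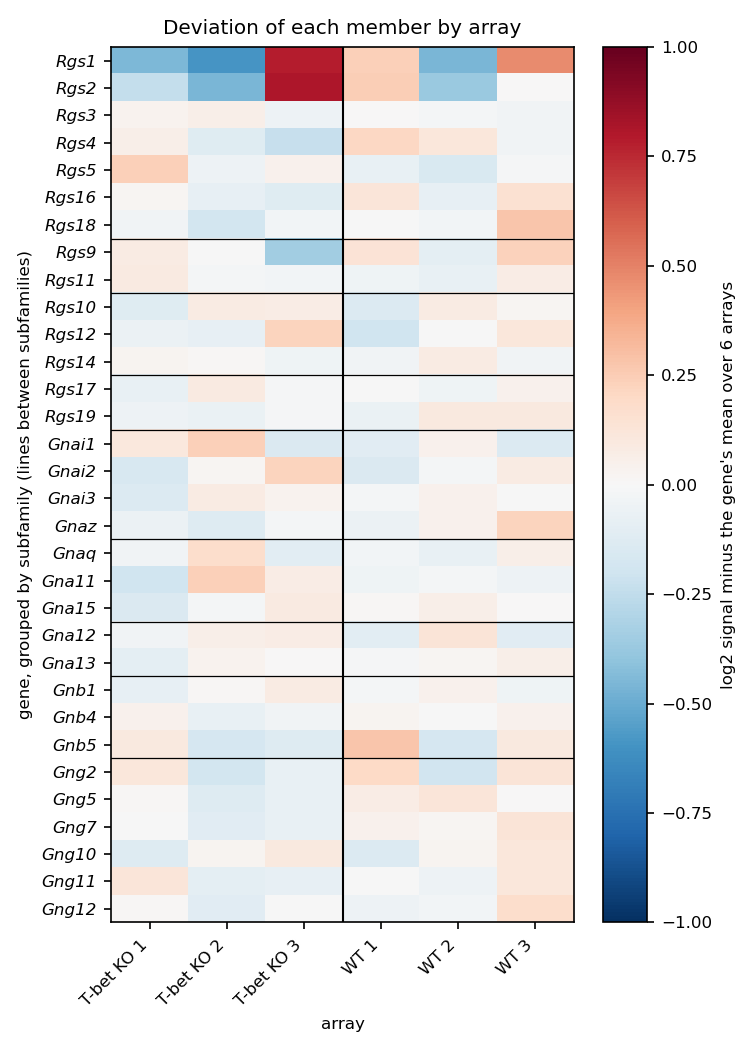
Log2 signal of each member on each of the 6 arrays minus the gene's mean over the arrays, T-bet knockout arrays left of wild-type arrays, genes grouped by subfamily. Rgs1 and Rgs2 reach 0.79 and 0.81 on T-bet knockout replicate 3, while no other member passes 0.35 in either direction.

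Immediate early genes, which cells switch on within minutes of stimulation or handling, varied across the same arrays as Rgs1 and Rgs2. The list of 18 such genes, which also holds the heat shock genes Hspa1a and Hspa1b, had mean deviations of -0.07, -0.36 and 0.69 on T-bet knockout replicates 1 to 3 and 0.24, -0.52 and 0.02 on wild-type replicates 1 to 3. The zinc finger gene Egr1 read 8.12, 7.39 and 8.86 on T-bet knockout arrays, against 8.59, 7.24 and 8.56 on wild-type arrays. Dusp1, a MAP kinase phosphatase gene, read 9.19, 8.46 and 9.97 on T-bet knockout arrays, against 9.69, 8.61 and 9.37 on wild-type arrays. T-bet knockout replicate 3 and wild-type replicates 1 and 3 were the 3 highest arrays for Rgs1, for Rgs2 and for 10 of the 18 listed genes (55.6%), a pattern looked for after the values were seen. The same held for 4.33% of all genes and for 1 of the other 30 members, Rgs18. None of the 18 genes was called between genotypes, and Hspa1a, at a difference of 1.66, was the only one with an unadjusted limma p under 0.05. The mean of the 11 measured B cell markers was also highest on T-bet knockout replicate 3 and lowest on wild-type replicate 2, as were 6 of the 11 genes, with mean deviations of 0.15, -0.16 and 0.37 on T-bet knockout arrays and 0.01, -0.39 and 0.01 on wild-type arrays. Cd79a, which encodes a signalling chain of the B cell receptor, read 7.32, 6.93 and 7.79 on T-bet knockout arrays and 7.01, 6.36 and 7.01 on wild-type arrays. The 13 granulocyte and monocyte markers had mean deviations of 0.04, -0.15 and 0.20 on T-bet knockout arrays and 0.01, -0.12 and 0.02 on wild-type arrays. T-bet knockout replicate 3 was the highest array for 6 of these 13, for 7 of the 11 B cell markers and for 21.5% of all genes. On T-bet knockout replicate 1 the means of both lists lay above 0, whereas Rgs1 and Rgs2 deviated by -0.45 and -0.24. The part of handling, of B cells or of granulocytes in the values of Rgs1 and Rgs2 was not tested, and in bulk RNA fewer cells of a type cannot be told apart from less RNA per cell.

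**Figure D3:**
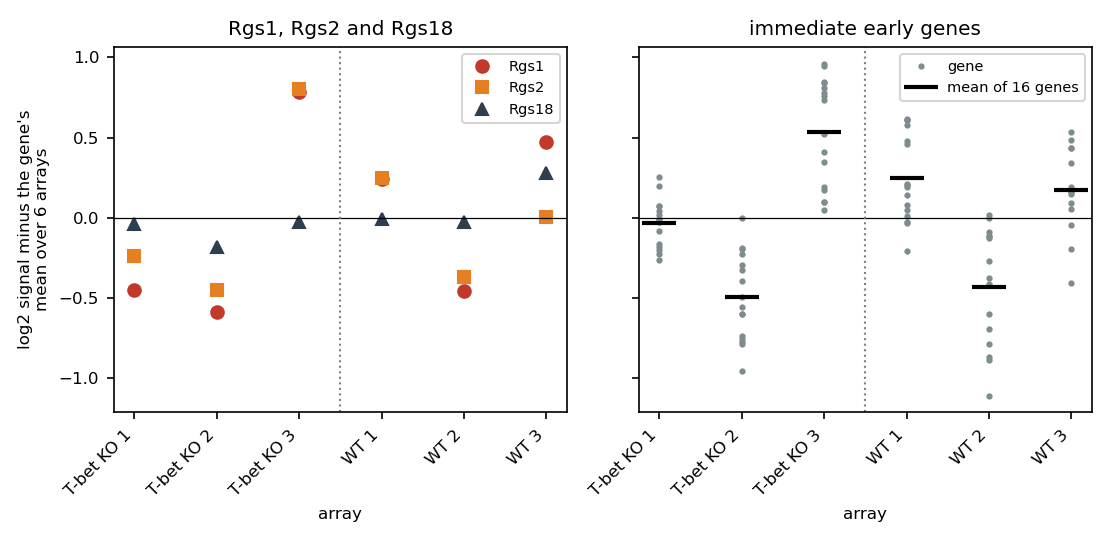
Log2 signal minus each gene's mean over the 6 arrays, for Rgs1, Rgs2 and Rgs18 (left) and for 16 immediate early genes without the heat shock genes (right; dots are genes, bars their mean). Rgs1, Rgs2 and the mean of the 16 genes are highest on T-bet knockout replicate 3, where that mean is 0.54, and low on T-bet knockout replicate 2 and wild-type replicate 2, at -0.49 and -0.43.

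Rgs18 lies near Rgs1 on chromosome 1, in a row of protein-coding genes that runs Rgs2, Rgs13, Rgs1, Rgs21 and Rgs18 in RefSeq. It is expressed mainly in megakaryocytes, platelets and their progenitors, where it acts on Gi and Gq. Its signal was 9.37, 9.23 and 9.38 on T-bet knockout arrays and 9.40, 9.38 and 9.69 on wild-type arrays. Wild-type replicate 3 stood above the other 5 arrays, which lay close together, and the genotypes overlapped because T-bet knockout replicate 3 was as high as wild-type replicate 2. The difference was -0.16 (SE 0.12, 95% interval -0.44 to 0.12; exact permutation p = 0.2), and -0.06 without wild-type replicate 3. The mean of the 13 measured megakaryocyte markers was highest on the same array, as were 7 of the 13 genes, with mean deviations of -0.13, -0.16 and -0.00 on T-bet knockout arrays and 0.06, -0.00 and 0.24 on wild-type arrays. Of these 13, 11 had a negative difference, 4 of them at an unadjusted limma p under 0.05, and 0 were called. Over all genes 48.2% of differences were positive, and 1.7% of genes were lower on T-bet knockout arrays at that p. The part of the megakaryocyte markers in the value of Rgs18 was not tested.

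The remaining R4 genes were steadier than Rgs1 and Rgs2. Rgs16, which is induced by inflammatory signals in other cells, read 5.86, 5.76 and 5.73 on T-bet knockout arrays and 5.96, 5.76 and 5.99 on wild-type arrays. Its difference was -0.12 (SE 0.10). Rgs3, which can also bind beta-gamma dimers, ranged over only 0.12 across the 6 arrays and differed by 0.03 (SE 0.09). Rgs4, a brain and heart RGS gene, read 5.58, 5.40 and 5.29 on T-bet knockout arrays and 5.73, 5.63 and 5.49 on wild-type arrays. Its difference, -0.19 (SE 0.12; exact permutation p = 0.2), was the most negative of the 32. The groups overlapped, since T-bet knockout replicate 1 exceeded wild-type replicate 3, but within same-numbered pairs the T-bet knockout array was lower in 3 of 3, with differences of -0.15, -0.23 and -0.20. All 3 pairs had 1 sign for 6 of the 32 members (18.8%), against 26.6% of all genes. Rgs5, a marker of pericytes, read 5.54, 5.26 and 5.35 on T-bet knockout arrays and 5.23, 5.15 and 5.30 on wild-type arrays. Its difference of 0.15 (SE 0.11) was the most positive of the 32, and a second, dimmer Rgs5 probe set gave 0.01 (SE 0.20). The 12 endothelial, stromal and pericyte markers had mean deviations of 0.10, -0.05 and -0.15 on T-bet knockout arrays and 0.14, -0.12 and 0.07 on wild-type arrays. Over the 7 R4 genes 3 differences were positive and 4 negative.

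The R7 genes, whose proteins bind Gnb5 in place of a gamma subunit, were measured through Rgs9 and Rgs11. Rgs9 read 6.68, 6.59 and 6.25 on T-bet knockout arrays, against 6.74, 6.50 and 6.83 on wild-type arrays. T-bet knockout replicate 3 alone lay below all the others, and the difference of -0.18 (SE 0.15) was -0.05 without it and -0.42 without the 3 arrays of mixed signal. The 8 mast cell and basophil markers had mean deviations of 0.14, -0.08 and -0.22 on T-bet knockout arrays and 0.02, -0.10 and 0.24 on wild-type arrays. Of these, Hdc, Mcpt8, Gzmb, Fcer1a and Mcpt4 belonged to the dimmest 30% of probe sets. The mean of the 12 endothelial, stromal and pericyte markers, given above, was also lowest on T-bet knockout replicate 3. The part of either list in the value of Rgs9 was not tested. Rgs11 differed by 0.03 (SE 0.09). Gnb5 read 5.94, 5.67 and 5.71 on T-bet knockout arrays and 6.12, 5.67 and 5.93 on wild-type arrays. Its difference was -0.13 (SE 0.14), and -0.03 without wild-type replicate 1. Replicate 2 was the lowest array within each genotype.

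The R12 genes had differences close to 0, with a wider interval for Rgs12 than for Rgs10 and Rgs14. Rgs10, a small RGS protein of leukocytes and platelets, read 8.46, 8.66 and 8.65 on T-bet knockout arrays and 8.44, 8.66 and 8.60 on wild-type arrays. Its difference was 0.02 (95% interval -0.23 to 0.28). Rgs12 encodes a large scaffold, and 1 of its 2 promoters held the T-box motif. It read 7.81, 7.79 and 8.09 on T-bet knockout arrays and 7.67, 7.87 and 7.98 on wild-type arrays. Replicate 3 was the highest array within each genotype, and the difference was 0.05 (95% interval -0.26 to 0.37). Rgs14, a scaffold that holds Gi alpha subunits in their GDP form, differed by -0.00 (95% interval -0.21 to 0.20). In the RZ group, Rgs19 read 8.17, 8.15 and 8.21 on T-bet knockout arrays and 8.15, 8.31 and 8.32 on wild-type arrays, a difference of -0.08 (SE 0.09). Rgs17, which acts on Gz among others, differed by 0.00 (SE 0.09).

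Among the alpha subunits, those of the Gi class inhibit adenylyl cyclase and carry chemokine and ADP signals. Gnai2, the main Gi alpha subunit of blood cells, read 10.89, 11.07 and 11.27 on T-bet knockout arrays and 10.90, 11.03 and 11.13 on wild-type arrays. In both genotypes replicate 1 was lowest and replicate 3 highest, and the difference was 0.06 (95% interval -0.25 to 0.36). Gnai3 differed by -0.01 (95% interval -0.24 to 0.22). Gnai1 read 6.81, 6.94 and 6.55 on T-bet knockout arrays and 6.59, 6.74 and 6.56 on wild-type arrays, a difference of 0.14 (SE 0.13), the most positive of the G protein subunits, which turned to -0.09 without the 3 arrays of mixed signal. Gnaz, whose product is the Gi-class subunit found in platelets and neurons, read 5.90, 5.83 and 5.94 on T-bet knockout arrays, against 5.90, 6.00 and 6.18 on wild-type arrays. As for Rgs18, wild-type replicate 3 was the highest array; the difference was -0.14 (SE 0.11), and -0.06 without that array.

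The Gq class activates phospholipase C beta. Gnaq, the subunit on which platelet activation by thrombin and ADP depends, read 8.53, 8.74 and 8.46 on T-bet knockout arrays and 8.53, 8.49 and 8.62 on wild-type arrays, a difference of 0.03 (95% interval -0.23 to 0.28), and -0.10 without those 3 arrays. Gna11 read 8.34, 8.78 and 8.61 on T-bet knockout arrays and 8.50, 8.53 and 8.49 on wild-type arrays, so that the T-bet knockout arrays spread on both sides of the wild-type ones. Its difference was 0.08 (95% interval -0.23 to 0.38). Gna15, the promiscuous subunit of haematopoietic cells and the neighbour of Gna11 on chromosome 10, read 9.78, 9.91 and 10.01 on T-bet knockout arrays and 9.94, 9.99 and 9.93 on wild-type arrays, a difference of -0.05 (95% interval -0.28 to 0.18), and 0.06 without them. Gna12 and Gna13, which form an alpha subunit class of their own, differed by 0.06 (SE 0.10) and -0.04 (SE 0.09). Gna13 and Rgs9 are neighbours on chromosome 11, which also carries Tbx21; Gna13 read 9.56, 9.69 and 9.65 on T-bet knockout arrays and 9.64, 9.67 and 9.71 on wild-type arrays.

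Of the beta subunits, Gnb1 and Gnb4 were steady and Gnb5, given above, was not. Gnb1 read 11.75, 11.85 and 11.92 on T-bet knockout arrays and 11.81, 11.88 and 11.79 on wild-type arrays, a difference of 0.01 (95% interval -0.20 to 0.23). Gnb4 had the smallest within-group SD of the 32, 0.0442, at the 3.4th percentile of all genes, and a difference of -0.04 (SE 0.09). The probe set annotated with both Gnb2 and Epo read 8.64, 8.60 and 8.71 on T-bet knockout arrays and 8.71, 8.73 and 8.79 on wild-type arrays, a difference of -0.09 (SE 0.09) that cannot be given to either gene.

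The genes of the gamma subunits, small prenylated proteins that anchor the dimer to the membrane, had 5 negative differences among 6, with a median of -0.08. Gng7 read 7.21, 7.10 and 7.14 on T-bet knockout arrays and 7.26, 7.23 and 7.34 on wild-type arrays. This was the member whose genotypes did not overlap, by a narrow margin, and its difference was -0.12 (SE 0.09; exact permutation p = 0.1, the smallest possible). Gng5 read 9.90, 9.76 and 9.81 on T-bet knockout arrays and 9.97, 10.01 and 9.90 on wild-type arrays, a difference of -0.13 (SE 0.09). The other probe sets of Gng5 alone gave 0.03 and -0.02, and a further one shares its annotation with pseudogenes, so the value of Gng5 is uncertain. Gng2 read 7.41, 7.11 and 7.22 on T-bet knockout arrays and 7.49, 7.10 and 7.43 on wild-type arrays. Its difference was -0.09 (SE 0.14), and -0.01 without wild-type replicate 1. Replicate 2 was the lowest array within each genotype. Gng11, a subunit known from platelets, differed by -0.04 (SE 0.10), Gng12 by -0.07 (SE 0.10) and Gng10 by 0.00 (SE 0.11). Without wild-type replicate 3 Gng11 and Gng12 stood at 0.01 and 0.00.

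Over the members as a whole, wild-type replicate 3 was the highest array for 10 of 32, where it was highest for 18.3% of all genes, and the lowest for 1. The mean deviation of the 32 was -0.03, -0.05 and 0.03 on T-bet knockout replicates 1 to 3 and 0.01, -0.03 and 0.07 on wild-type replicates 1 to 3. The 14 RGS genes spanned -0.10 to 0.10 and the 18 subunit genes -0.03 to 0.05 on this measure.

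**Figure D4:**
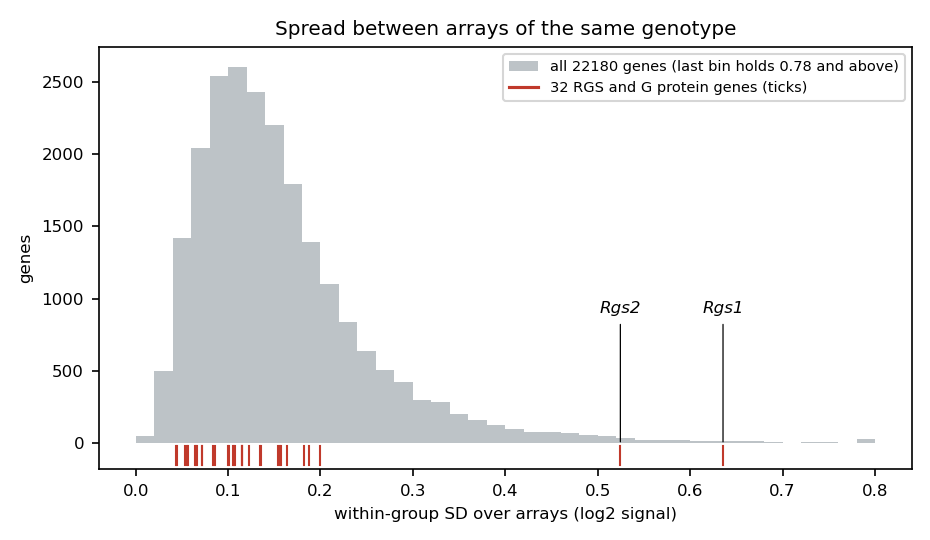
Histogram of the SD between arrays of the same genotype (log2 signal) for all 22180 genes, with ticks for the 32 members. Of the members, 30 lie at or below 0.20, and Rgs1 and Rgs2 lie at 0.64 and 0.52.

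Genes that act before and after the G protein in the same pathway were taken from 5 lists, and none was called. Of 39 measured effectors, 19 differences were positive and 20 negative, with a median of -0.00. Only Pde4b, a cyclic AMP phosphodiesterase, had an unadjusted limma p under 0.05, against 3.13% of all genes. Pde4b read 6.68, 6.60 and 6.79 on T-bet knockout arrays and 7.18, 6.87 and 7.02 on wild-type arrays, a difference of -0.33 (SE 0.11). The genotypes did not overlap for 6 of the 39, all lower on T-bet knockout arrays. Groups did not overlap for 8.7% of all genes (5.18% lower and 3.52% higher on T-bet knockout arrays). The 6 were Pde4b, Pde3a, Adcy1, Adcy7, Plcb2 and Adcy2. Adcy7 differed by only -0.03, and Pde3a, at -0.14, belonged to the dimmest 30% of probe sets. Plcb2, the phospholipase C beta of blood cells, stood at -0.24 (SE 0.11) and Adcy2, an adenylyl cyclase gene, at -0.28 (SE 0.13). Among 7 measured receptor kinases and arrestins 5 differences were positive and 0 had an unadjusted p under 0.05; Grk1, Grk5 and Grk3 differed by 0.11, 0.18 and -0.10. Among 18 other regulators and chaperones of G proteins 11 were positive, again with 0 under 0.05; Gpsm3, Gpsm2 and Pdc differed by 0.13, 0.11 and 0.10.

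Of 36 measured receptors of progenitors and megakaryocytes, 26 lay below 0 and 10 above, the median being -0.06, and 2 had an unadjusted limma p under 0.05. They were the sphingosine phosphate receptor gene S1pr5, at -0.38 (SE 0.11), and F2rl3, at -0.29 (SE 0.08). F2rl2, a further protease-activated receptor gene, was next at -0.25 (SE 0.13). The groups did not overlap for 6 lower and 1 higher of the 36, against 5.18% lower and 3.52% higher of all genes. Over all genes 48.2% of differences were positive and 3.13% had an unadjusted limma p under 0.05. Mean deviations of the 36 were -0.01, -0.04 and -0.04 on T-bet knockout arrays and 0.05, -0.02 and 0.06 on wild-type arrays. Wild-type replicate 3 was the highest array for 13 of the 36, against 18.3% of all genes. F2rl3 is also a megakaryocyte marker, and the part of megakaryocytes in the receptor values was not tested. The 22 measured Rgs, Gna, Gnb and Gng genes outside the 33 had 10 positive and 12 negative differences. At an unadjusted limma p under 0.05 there were 3, against 3.13% of all genes. All 3 were higher on T-bet knockout arrays and in the dimmest 30% of probe sets. They were the sensory subunit genes Gnat3 and Gngt1, at 0.43 (SE 0.10) and 0.32 (SE 0.13), and Rgs21, at 0.29 (SE 0.10).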

How the data were processed

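The deposited log2 signals of 41345 probe sets on 6 arrays came from Affymetrix Expression Console, version 1.4.1.46, which the submitters' processing notes name. How the authors corrected background, normalized arrays and summarised probes is not stated there; the log2 scale was inferred from the highest value, 14.2. Without detection calls it is unknown which probe sets were above background, and the 3 arrays per group limit the precision. Names came from the array annotation (23521 probe sets with 1 symbol, 1814 with several, 16010 unnamed), with symbols updated by gene ID through RefSeq (23328 matched).

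All probe sets were fitted with limma 3.58.1 in R 4.3.3 (lmFit, eBayes), with Benjamini-Hochberg adjustment over all 41345, and the fit was tested on simulated data. SE and intervals are limma's, and a difference under 1e-09 was taken as 0. Probe sets with a mean under 5.70, the lowest 30%, are called dim. Exact permutation tests ran over the 6 arrays. The members, gene lists, tests and alternatives were chosen with earlier results of these data known. The text names every member, the targeted gene, and from each pathway and marker list the 3 genes of smallest p; other effectors, markers, immediate early genes and motifs named were chosen after their values were seen. Mice are numbered 1 to 3 in both groups. The sample titles state no pairing of these numbers. Deviations of same-numbered arrays correlated weakly in these same data, at 0.285, 0.116 and 0.115 over 1 probe set per gene (0.212, 0.0569 and 0.14 over all probe sets). The numbers were therefore taken as pairs only in an alternative fit with a replicate block and in the pair differences given for Rgs4. The alternatives were 16 planned and 1 added.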

Additional observations from a re-analysis of the deposited data

How the results depend on the processing

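No member was called in any of the 17 alternatives, nor was any of the pathway genes. With the replicate block, which pairs same-numbered mice, 0 of 32 members were called and the pairing changed no other call. Of the 31 members whose difference had a sign (Gng10 was at 0), 13 kept it in every alternative in which they were measured and 18 changed it in at least 1. The median difference, -0.03, moved by less than the spread between arrays and lay between -0.05 and 0.00. Members whose groups did not overlap numbered 2 with arrays centred on their medians (8.22% of all genes), 3 after a further quantile normalization (10.2%), and 2 to 7 when 1 array was left out (14.6% to 26.2%), where fewer arrays make a gap easier. Without the 3 arrays that carried both Xist and Y-linked signal, an alternative chosen after seeing the data, they numbered 22 of 32 (68.8%, against 71.9% of all genes) and 1 member, Rgs2, had an unadjusted p under 0.05. This leaves 1 T-bet knockout array, whose spread is assumed to be like that of the wild-type arrays, and genotype cannot be told apart from that array. Probe sets past the adjusted threshold numbered 1 with centred arrays and 1 with array weights, and leaving out 1 array at a time gave 0 to 2; the cause was not tested.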

Other observations

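Beside the RGS and G protein genes, the marker lists held 0 called genes, and the 3 genes of smallest limma p in each are given as differences. Among MEP markers Itga2b, the integrin chain CD41, differed by -0.34 (SE 0.14), Klf1 by 0.12 (SE 0.10) and Epor by 0.11 (SE 0.11). Among megakaryocyte markers P2rx1, an ATP-gated channel of platelets, read 6.06, 6.17 and 5.75 on T-bet knockout arrays and 6.46, 6.31 and 6.90 on wild-type arrays. Trpc6 differed by -0.42 (SE 0.13) and F2rl3 by -0.29. Cd79a, Ebf1 and Blnk of the B cell list differed by 0.56, 0.54 and 0.34. Cd4, Lat and Nkg7 of the T and NK cell list differed by 0.27, -0.27 and -0.28. Csf3r, Ly6g and S100a8 of the granulocyte and monocyte list differed by -0.19, 0.29 and 0.39. Hdc, Mcpt8 and Gzmb of the mast cell and basophil list differed by 0.18, -0.35 and -0.20. Col1a2, Stab2 and Pdgfrb of the endothelial, stromal and pericyte list differed by -0.39, -0.27 and -0.21. Ly6g, S100a8, Hdc, Mcpt8, Gzmb and Stab2 belonged to the dimmest 30% of probe sets. In the immediate early list Hspa1a, Hspa1b and Egr2 differed by 1.66, 1.32 and -0.22; Hspa1a read 9.15, 10.27 and 11.59 on T-bet knockout arrays and 9.60, 8.13 and 8.28 on wild-type arrays, an order of arrays unlike that of Rgs1 and Rgs2.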
